A study of Drosophila melanogaster with 24 samples.

Results

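The vacuolar proton ATPase (V-ATPase) is the rotary pump that uses ATP to move protons across membranes. It acidifies lysosomes, endosomes and synaptic vesicles, and in insects it also energizes the plasma membrane of epithelia such as the Malpighian tubules and parts of the midgut. A cytosolic V1 sector (subunits A to H) breaks down ATP and drives a rotor, and a membrane V0 sector (subunits a, c, c", d and e) carries the protons. In Drosophila several subunits are encoded by paralogs, among them Vha100-1, known for its function in neurons, and Vha100-4, known from the acid-secreting region of the midgut.

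The genes described here are the rows of the count tables whose symbol begins with Vha: 33 of 16727 genes. They comprise 13 genes for the 8 subunits of V1, 18 genes for the 5 subunits of V0 and 2 accessory subunits, VhaAC45 and VhaM8.9. Subunits B (Vha55), C (Vha44), E (Vha26), G (Vha13) and H (VhaSFD) each have 1 gene, and the other 8 have several. From general knowledge of the fly, 16 genes were classed as broad, 9 as testis, 1 as neuronal (Vha100-1) and 1 as gut (Vha100-4), and 6 were left without a class.

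All flies were adults of the w1118 strain, which was shared by every group. Males and females were kept apart for 7 days on a regular diet (RD) or on a high-fat diet (HFD), which was RD with 20% coconut oil. Flies up to 2 days old entered the protocol a day before the diets, per the methods, whereas the labels give an age of 5 to 7 days. RNA came from pools of about 100 heads or, by the labels, 10 headless bodies. Males and females were deposited as separate count tables, so any difference in counting between the tables cannot be told apart from sex. The 8 combinations of sex, tissue and diet had 3 libraries each, 24 in all. Nothing in the labels says that the replicates came from separate rearings, so p-values measure the spread between pools, which may be technical.

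Total counts ran from 13.4 to 25.7 M per library, and the Vha genes took 0.53 to 0.85% of them. Levels are given as CPM (counts scaled to the library total, with TMM factors over the 24 libraries) within a gene, and as TPM (scaled by gene length) between genes. Summed neuron and photoreceptor markers were 49202 to 81521 CPM in heads and 177 to 3189 CPM in bodies, and testis markers were 2546 to 3771 CPM in male bodies and 4.48 to 35.7 CPM elsewhere. The library male body RD 3 stood apart with 3189 CPM of the neuron and photoreceptor list, against 418 to 1018 CPM in the other 5. Male head HFD 4 held 35.7 CPM of testis markers, against 8.28 to 14.7 CPM in the other male heads. Male head libraries also differed more from each other: the median SD of the Vha genes was 0.35 on the log2 scale in male HFD heads and 0.06 in female HFD heads. In bulk tissue, fewer cells of a type and less RNA per cell cannot be told apart.

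**Figure D1:**
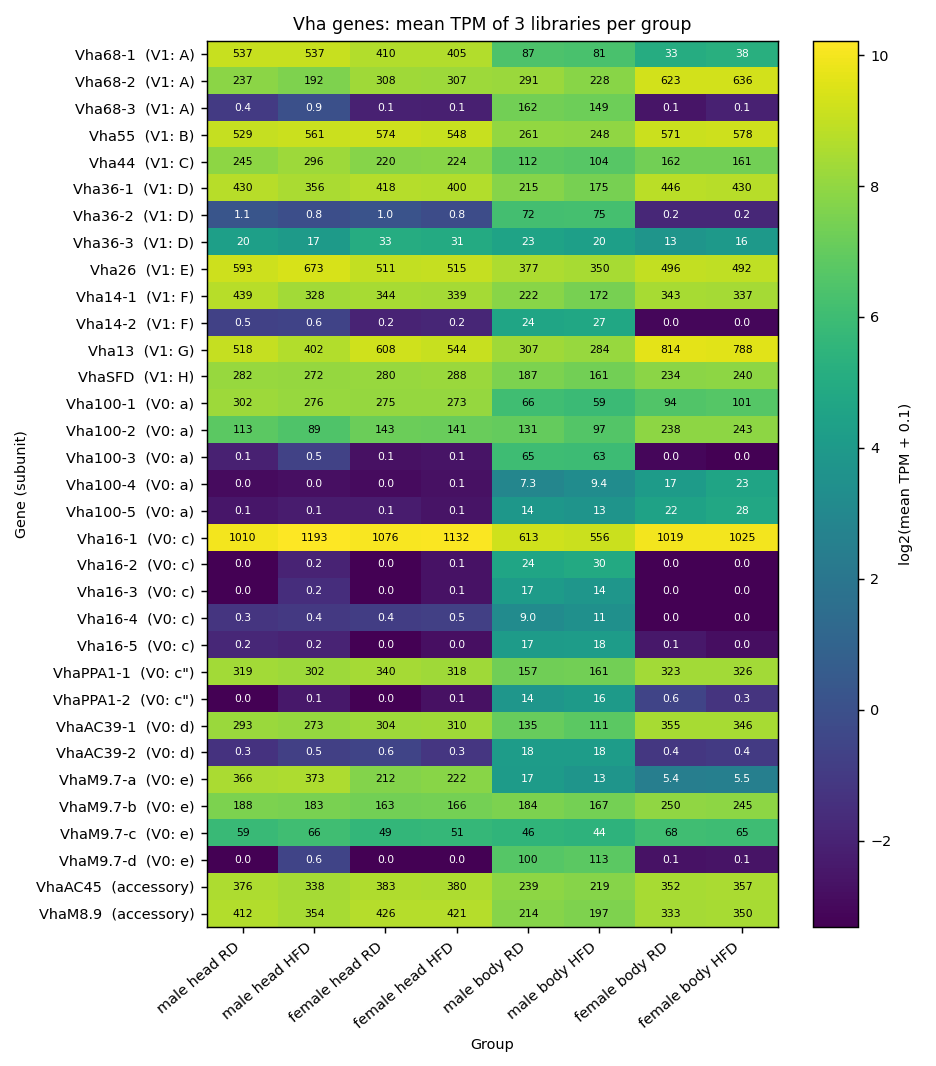
Mean TPM of 3 libraries for the 33 Vha genes (rows, with subunit) in the 8 groups (columns); color is log2(mean TPM + 0.1) and the printed number is the mean TPM. The 11 genes that are dark in every column but the male bodies are the male-body genes, and Vha16-1 is the brightest row.

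The proteolipid subunit c, which forms most of the rotor ring in the membrane, had the most abundant transcript of the family. Vha16-1 was at a mean of 1010 TPM in male RD heads, 1076 TPM in female RD heads, 613 TPM in male RD bodies and 1019 TPM in female RD bodies. Vha13, the stalk subunit G, came next in female RD bodies with 814 TPM, and Vha26, the stalk subunit E, came next in male RD heads with 593 TPM. Among the 16 genes of the broad class, the lowest mean in male RD heads was 113 TPM, for Vha100-2, a gene of the membrane subunit a. The paralogs outside that class ranged from no reads to 366 TPM on RD.

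For subunits A, a and e the most abundant paralog differed between heads and bodies. For subunits D, F, c, c" and d it was the same in every group: Vha36-1, Vha14-1, Vha16-1, VhaPPA1-1 and VhaAC39-1. Vha68-1 and Vha68-2 both encode the catalytic subunit A, and Vha68-1 made up most of its transcripts in heads, while Vha68-2 was the most abundant of its 3 genes in bodies. All 3 genes of this subunit lie on chromosome 2L: in dm6 Vha68-2 spans 12974322 to 12978607 and Vha68-3 12978786 to 12981293 on the plus strand, 178 bases apart, and Vha68-1 spans 13000770 to 13004107 on the minus strand. On RD, Vha68-1 was 69.3% ± 1.7 (SD, n = 3) of the summed TPM of subunit A in male heads and 57.0% ± 2.0 (SD, n = 3) in female heads. Its share was 16.1% ± 1.7 (SD, n = 3) in male bodies and 5.01% ± 0.27 (SD, n = 3) in female bodies. The same order held on HFD, with 73.9%, 56.9%, 17.9% and 5.60% in these tissues. Such shares do not depend on how libraries are scaled.

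Subunit a, which anchors the pump in its target membrane, showed a like exchange. Vha100-1 was 72.8% ± 2.8 (SD, n = 3) of subunit a in male RD heads and 65.7% ± 2.6 (SD, n = 3) in female RD heads. In RD bodies it was 23.4% ± 1.9 (SD, n = 3) in males and 25.3% ± 0.70 (SD, n = 3) in females. Vha100-2 was the main gene in bodies, with 64.3% ± 0.92 (SD, n = 3) in females and 45.9% ± 3.6 (SD, n = 3) in males. For subunit e, VhaM9.7-a was 59.6% ± 1.6 (SD, n = 3) in male RD heads and 49.97% ± 0.55 (SD, n = 3) in female RD heads, but 5.02% ± 1.5 (SD, n = 3) in male RD bodies and 1.67% ± 0.19 (SD, n = 3) in female RD bodies. VhaM9.7-b took its place in bodies with 77.3% in females and 53.0% in males.

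**Figure D2:**
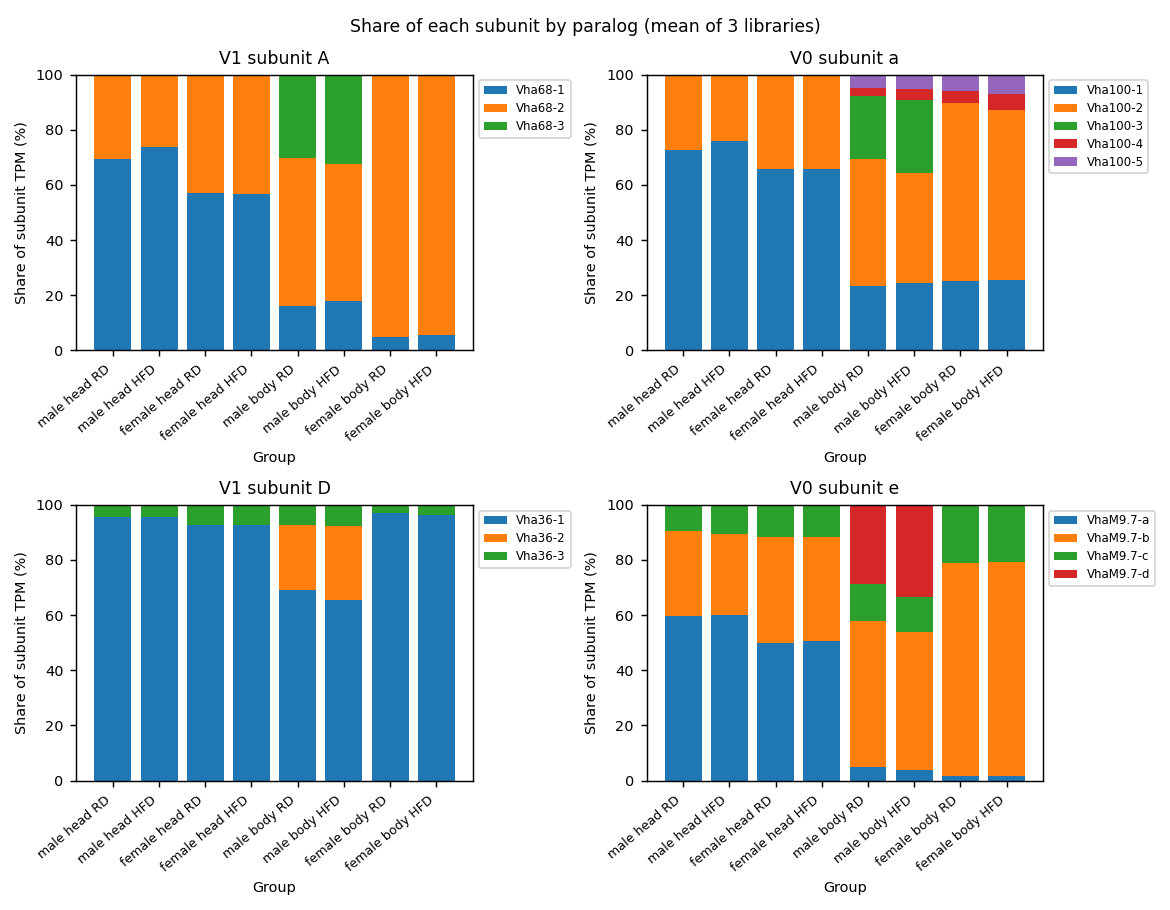
Share of the summed TPM of subunits A, a, D and e (y axis, percent) by paralog in the 8 groups (x axis); bars are means of 3 libraries. Vha68-1, Vha100-1 and VhaM9.7-a fill more than 49% of the bar in every head group, and Vha68-3, Vha100-3, Vha36-2 and VhaM9.7-d appear in male bodies.

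The comparison of bodies with heads asks how the tissues differ within a sex. In males on RD, 17 of 33 genes were higher and 6 were lower in bodies (edgeR, adjusted p under 0.05), beside 73.5% of all 13046 genes called (42.8% higher and 30.7% lower) and 69.7% of the Vha genes. In females on RD, 22 genes passed the filter on low counts, and 9 were higher and 6 lower in bodies, beside 86.9% of all 10725 genes (45.5% higher and 41.3% lower). On HFD the counts were 13 higher and 6 lower of 33 in males, beside 63.3% of all genes called (34.0% higher and 29.3% lower), and 9 higher and 5 lower of 22 in females, beside 85.3% (44.7% higher and 40.6% lower). In males 11 of the genes higher in bodies on each diet passed the filter only through the male bodies. They were later grouped for being high there, so nothing is read from these counts. The other 22 genes split 6 higher and 6 lower on RD and 2 higher and 6 lower on HFD. In both sexes and on each diet the genes higher in bodies also include Vha100-4 and Vha100-5, which passed the filter only through bodies. Their direction was fixed by that filter, so nothing is read from these splits or from the female counts. With those 11 genes included, the median log2 fold change of the Vha genes was 0.63 in males on RD and 0.10 in females on RD, beside 0.18 and 0.10 over all genes. Of the 11 genes that the female tests left out, none reached a mean of 1 CPM in female heads or bodies.

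VhaM9.7-a, on chromosome 3L at 4262705 to 4263464, was the most head-enriched member. Its CPM was 92.7, 116 and 122 in male RD heads and 7.52, 6.20 and 11.4 in male RD bodies. The difference, body over head, was −3.71 on the log2 scale (SE 0.26, adjusted p = 6.5e-06) and −4.15 without male body RD 3, the library with the most neuron and photoreceptor marker reads and the highest VhaM9.7-a of the male bodies. In females the CPM was 72.3, 76.5 and 65.6 in RD heads and 2.03, 2.11 and 1.78 in RD bodies, a difference of −5.17 (SE 0.11, adjusted p = 2.7e-09). On HFD it was at 118, 139 and 94.0 CPM in male heads and 7.87, 6.74 and 5.67 CPM in male bodies, a difference of −4.48 (SE 0.29), and the female difference was −5.19 (SE 0.13). No head library of any group overlapped a body library of the same sex.

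Vha68-1 was at 595, 630 and 613 CPM in male RD heads and 167, 138 and 167 CPM in male RD bodies, a log2 difference of −1.96 (SE 0.15, adjusted p = 1.1e-05), and −2.16 without male body RD 3. In females it was at 518, 493 and 551 CPM in RD heads and 46.7, 47.4 and 42.7 CPM in RD bodies, a difference of −3.52 (SE 0.09, adjusted p = 6.7e-09). The difference was also called on HFD, at −2.35 (SE 0.25) in males and −3.29 (SE 0.10) in females. Vha68-2 went the other way: it was 427, 398 and 390 CPM in female RD heads and 857, 948 and 872 CPM in female RD bodies, a rise of 1.14 (SE 0.08, adjusted p = 2.6e-06). In male RD bodies it was higher than in heads by 0.95 (SE 0.15, adjusted p = 0.00063).

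Vha100-1 was at 481, 380 and 422 CPM in male RD heads and 150, 136 and 156 CPM in male RD bodies. In females it was at 433, 411 and 444 CPM in RD heads and 153, 170 and 156 CPM in RD bodies. The heads were higher in each, by 1.54 (SE 0.15) and 1.43 (SE 0.08) on the log2 scale. Vha100-2 was at 148, 149 and 169 CPM in male RD heads and 265, 311 and 274 CPM in male RD bodies, a rise of 0.87 (SE 0.14, adjusted p = 0.00077). In females it was at 217, 237 and 203 CPM in RD heads and 386, 428 and 381 CPM in RD bodies, a rise of 0.86 (SE 0.09, adjusted p = 3.3e-05). All 4 of these sets of RD libraries were apart.

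In male HFD samples same-numbered heads and bodies deviated together. Unless a block is named, the values given for HFD males come from the fit without pairs. With the replicate number as a block 22 of 33 genes were called, 14 higher and 8 lower, beside 9114 of all 12813 genes. Among the 14 are the 11 genes that passed the filter only through male bodies, and Vha100-4 and Vha100-5, which passed it through bodies alone. Nothing is read from the count. The 3 added calls were Vha16-1 (−0.71, adjusted p = 0.026), Vha36-1 (−0.62, adjusted p = 0.032) and Vha68-2 (0.67, adjusted p = 0.041). Without the block Vha68-2 was at 0.62 (SE 0.32, adjusted p = 0.13) and Vha100-2 at 0.50 (SE 0.30, adjusted p = 0.19), though their head and body libraries did not overlap. Vha44, the subunit C that holds V1 to V0, was lower in bodies in all 4 comparisons, from −0.32 (SE 0.08) in females on RD to −1.12 (SE 0.31) in males on HFD.

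Vha100-4 and Vha100-5 were body genes of both sexes. Vha100-4 had 2 reads in the 3 male RD head libraries together and 739 in the male RD bodies, a ratio of 349 (95% exact binomial interval 96.4 to 2891, counting error only). In females on RD it had 2 reads in heads and 1560 in bodies, a ratio of 675 (interval 186 to 5575). On HFD it had 3 reads in male heads and 900 in male bodies, and 4 reads in female heads and 2153 in female bodies. Vha100-5 had 5 and 8 reads in male and female RD heads and 1528 and 2149 in the bodies, with fitted log2 differences of 8.09 (SE 0.56) and 7.80 (SE 0.50). Vha100-5 had been classed as a testis gene, and the data go against that class: its CPM was 30.6, 45.5 and 23.6 in female RD bodies and 22.6, 37.1 and 25.0 in male RD bodies. It overlaps an antisense gene, and since the strand setting of the counting is not given in the sources used here, their reads may be mixed.

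In male bodies a further set of genes joined the family. After the values were seen, 11 genes were grouped because their mean was at least 1 CPM in both male body groups and below 1 CPM in each of the other 6 groups. They are Vha68-3 (subunit A), Vha36-2 (D), Vha14-2 (F), Vha100-3 (a), Vha16-2, Vha16-3, Vha16-4 and Vha16-5 (c), VhaPPA1-2 (c"), VhaAC39-2 (d) and VhaM9.7-d (e). Of these, 8 had been classed as testis genes, and Vha16-2, Vha16-3 and VhaM9.7-d had no class. They cover all 8 subunits that have more than 1 gene. On RD their summed reads per gene were 193 to 14856 in male bodies, 0 to 15 in female bodies, 0 to 31 in male heads and 0 to 32 in female heads.

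These genes carried 11.8% ± 1.4 (SD, n = 3) of the summed Vha TPM of male RD bodies and 13.4% ± 1.0 (SD, n = 3) on HFD, against 0.020% in female RD bodies. Beside them, the accessory gland markers summed to 4393 to 7790 CPM in male bodies over both diets and 0.341 to 0.756 CPM in female bodies. The share of the male-body genes differed between subunits. On RD it was 30.2% ± 3.8 (SD, n = 3) of subunit A, 28.8% ± 5.2 (SD, n = 3) of e, 23.3% ± 2.1 (SD, n = 3) of D and 23.0% ± 3.6 (SD, n = 3) of a. It was 11.6% ± 1.5 (SD, n = 3) of d, 10.2% ± 2.8 (SD, n = 3) of F, 9.86% ± 1.5 (SD, n = 3) of c with its 4 genes summed, and 7.93% ± 0.97 (SD, n = 3) of c". Within each of these sets of 4 subunits the neighbours overlap in their libraries. The HFD shares were 32.5% of A, 33.2% of e, 27.0% of D, 26.5% of a, 14.4% of d, 13.6% of F, 11.5% of c and 8.42% of c".

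Vha68-3 was the most abundant of the male-body genes, with 304, 237 and 266 CPM in male RD bodies and 300, 231 and 265 CPM in male HFD bodies. Its reads in the female RD bodies were 4, 2 and 0. Vha100-3 had 150, 111 and 127 CPM in male RD bodies, and its 7152 reads stood against 2 in female RD bodies, a ratio of 4203 (95% exact binomial interval 1163 to 34711). On HFD it had 6336 reads in male bodies and none in female bodies, at least 2782-fold higher by a floor of 3 counts over the group. VhaM9.7-d had 41.3, 27.5 and 31.4 CPM in male RD bodies and 1848 reads against 1 in female bodies, a ratio of 2172 (interval 389 to 85833). It had no read in male RD heads, at least 583-fold fewer than in the bodies.

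Of the 4 subunit c genes in the set, Vha16-2 was at 8.86, 8.9 and 11.7 CPM in male RD bodies and Vha16-3 at 5.64, 7.67 and 8.51 CPM, both without a read in female RD bodies, which gives at least 214-fold and 157-fold. Vha16-2 and Vha16-3 lie 985 bases apart on chromosome 3L. VhaPPA1-2, the male-body gene of the ring subunit c", had 5.10, 6.45 and 6.91 CPM in male RD bodies but 14.9, 3.62 and 4.70 CPM on HFD. Male body HFD 2, the library with 14.9 CPM, also held the most Vha36-2 (103 CPM against 49.6 and 55.4) and Vha13 (303 CPM against 142 and 130), and its midgut markers summed to 7858 CPM against 1482 and 982 CPM. The part of that library's makeup in these values was not tested. Vha100-3 overlaps sano, Vha16-2 an antisense gene and VhaPPA1-2 CG3817, and of the genes described earlier Vha100-1 overlaps Alg13, Vha100-2 overlaps Vti1b and Vha44 overlaps Hmgs, so reads may be shared with these neighbors.

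In male heads these genes were near 0, and the few reads were uneven. Vha68-3 had 4, 8 and 27 reads and Vha100-3 had 2, 1 and 25 reads in male head HFD 2, 3 and 4. The highest library was the one with 35.7 CPM of testis markers, whose part was not tested. In female RD bodies the 16 testis markers summed to 4.48 to 6.34 CPM, and 8 of them had no read in any library.

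The comparison of males with females asks how the sexes differ within a tissue. In RD bodies 9 of the 16 broad genes were lower in males. Of 33 genes, 14 were higher and 10 lower in males (edgeR, adjusted p under 0.05), which is 72.7% called beside 84.4% of all 13004 genes (49.3% higher and 35.1% lower). On HFD 14 were higher and 12 lower, 78.8% beside 75.6% of all 13018 genes (43.1% higher and 32.4% lower). On each diet 11 of the genes called higher were the male-body genes, whose direction was fixed by how they were grouped and which passed the filter through male bodies alone, so that nothing is read from their count. The other 22 genes split 3 higher and 10 lower on RD and 3 higher and 12 lower on HFD. The 16 broad genes split 1 higher and 9 lower on RD, and their median log2 fold change was −0.32. On HFD they split 1 higher and 10 lower, with a median of −0.53. Over all genes the median was 0.40 on RD and 0.23 on HFD with TMM scaling. It was 0.46 and 0.40 with RLE scaling and 0.24 and 0.09 with total counts alone. With TMM the median of the broad genes lay below that of all genes on each diet. The values over all genes include genes that passed the filter through male bodies alone. No median or share was computed over genes read in both sexes, so the splits of the 22 and 16 genes have no matched background. No gene called in either diet changed direction under RLE or total counts.

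**Figure D3:**
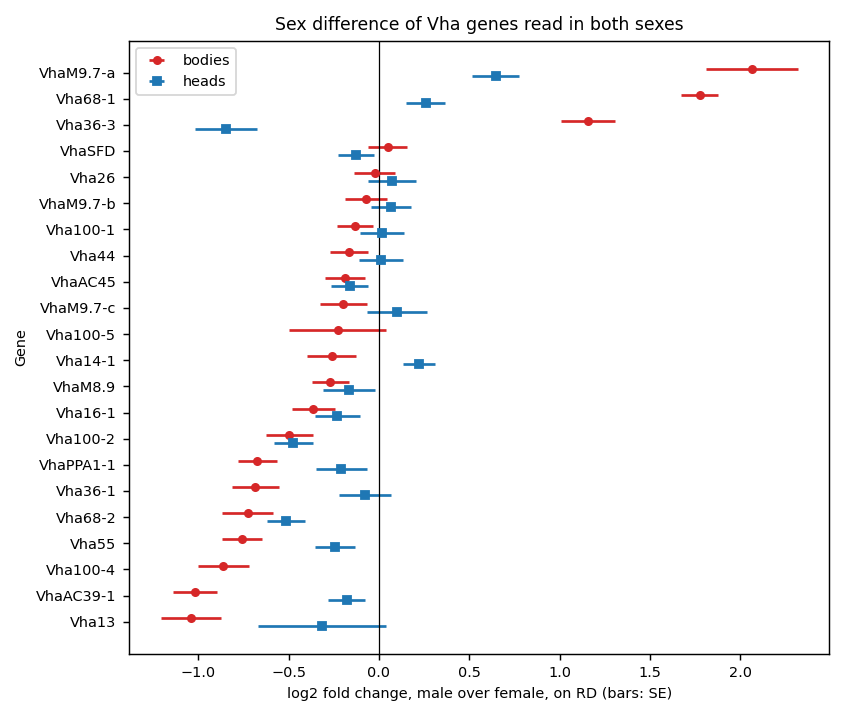
Log2 fold change of males over females on RD (x axis, bars are the SE) for the 22 Vha genes with at least 100 reads in female RD bodies (y axis), in bodies (circles) and heads (squares). Vha68-1 and VhaM9.7-a lie to the right in bodies, at 1.78 and 2.07, and Vha36-3 lies at 1.16 in bodies and −0.85 in heads.

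The male-body genes were higher in male bodies by the way they were grouped, and their values are given as a description. The 3 with the highest fitted change on RD were Vha100-3 (11.75), Vha68-3 (11.39) and Vha16-2 (10.61), all against female groups with 6 reads or fewer, so that these values depend on the prior count and are no bounds. Vha14-2, a second gene for the small V1 subunit F, had 1538 reads in male RD bodies and 1 in female RD bodies, a ratio of 1808 (95% exact binomial interval 324 to 71442). Vha16-5 had 455 against 2 reads, a ratio of 267 (interval 73.6 to 2215), and Vha16-4 had 193 against none, at least 75.6-fold higher. VhaAC39-2, a second gene for the V0 subunit d, was less exclusive, with 805 against 15 reads and a log2 fold change of 5.93. On HFD Vha100-3 was at 110, 146 and 154 CPM in male bodies, Vha16-2 at 10.5, 13.0 and 15.3 CPM and VhaM9.7-d at 28.4, 50.2 and 45.1 CPM, with 0, 0 and 1 reads in the 3 female bodies together.

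Vha68-1, VhaM9.7-a and Vha36-3, which both sexes used, were also higher in male bodies. Vha68-1 was at 167, 138 and 167 CPM in male RD bodies against 46.7, 47.4 and 42.7 CPM in females, a log2 fold change of 1.78 (SE 0.10, adjusted p = 1.9e-07) and 1.48 (SE 0.13) on HFD. VhaM9.7-a was at 7.52, 6.20 and 11.4 CPM against 2.03, 2.11 and 1.78 CPM, a change of 2.07 (SE 0.25, adjusted p = 3.9e-05) and 1.83 (adjusted p = 0.00027) without male body RD 3. Vha36-3, a gene for the rotor subunit D, was at 18.6, 19.2 and 22.5 CPM against 9.11, 9.54 and 8.19 CPM, a change of 1.16 (SE 0.15, adjusted p = 5.4e-05). On HFD Vha36-3 changed by 0.73 (SE 0.25, adjusted p = 0.028), and with total counts alone its 0.59 was not called. None of these sets of male and female libraries overlapped on either diet. The neuron and photoreceptor markers were also higher in male bodies, at 418 to 3189 CPM on both diets against 177 to 249 CPM in females, and their part in Vha68-1 and VhaM9.7-a was not tested.

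The largest falls were in subunits G and d. Vha13 was at 155, 208 and 221 CPM in male RD bodies and 351, 417 and 426 CPM in female RD bodies, a log2 fold change of −1.04 (SE 0.17, adjusted p = 0.00026). VhaAC39-1, the broadly used gene of subunit d, was at 147, 170 and 173 CPM in males and 340, 338 and 310 CPM in females, a change of −1.02 (SE 0.12, adjusted p = 3.3e-05). On HFD VhaAC39-1 was at 175, 122 and 135 CPM against 322, 324 and 321 CPM, a change of −1.25 (SE 0.19). Vha68-2 was lower in male bodies by 0.73 (SE 0.14) on RD, and on HFD it was at 536, 421 and 414 CPM against 934, 875 and 932 CPM, a change of −1.09 (SE 0.20). Vha13 changed by −1.08 (SE 0.36, adjusted p = 0.026) on HFD, where male body HFD 2 had 303 CPM and the other males 142 and 130 CPM, and it was not called without male body HFD 3 (−0.81), male body HFD 4 (−0.77) or any one of the 3 female libraries (−1.06 to −1.12).

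Vha55, the non-catalytic nucleotide-binding subunit B, fell by 0.76 (SE 0.11) on RD and by 0.83 (SE 0.20) on HFD. Vha36-1, the broadly used gene of subunit D, and VhaPPA1-1, the broadly used gene of c", fell by 0.68 and 0.67 on RD. Vha16-1 fell by 0.36 on RD and VhaM8.9, the accessory subunit also known as the prorenin receptor, by 0.27, a call lost with RLE factors. The remaining broad genes were not called on RD and lay between −0.26 for Vha14-1 and 0.05 for VhaSFD, the regulatory subunit H. Other cell types moved with these values: the ovary markers summed to 522 to 681 CPM in male bodies and 2090 to 2407 CPM in female bodies over both diets, and the midgut markers to 982 to 7858 and 5025 to 7767 CPM. Their part in the lower levels of males was not tested.

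Vha100-2 and Vha100-4 were both lower in male bodies, on each diet. Vha100-2 was at 265, 311 and 274 CPM in male RD bodies and 386, 428 and 381 CPM in female RD bodies, a log2 fold change of −0.50 (SE 0.13, adjusted p = 0.0054). On HFD it was at 261, 210 and 210 CPM against 428, 380 and 417 CPM, a change of −0.94 (SE 0.18, adjusted p = 0.0019). Vha100-4 was at 12.6, 13.1 and 14.5 CPM in male RD bodies and 21.6, 27.2 and 23.8 CPM in female RD bodies, a change of −0.86 (SE 0.14, adjusted p = 0.00031), and −0.93 (SE 0.14, adjusted p = 0.00063) on HFD. Vha100-1 changed by −0.13 on RD and −0.37 (SE 0.15, adjusted p = 0.059) on HFD and was not called. Vha100-5 was at −0.23 (SE 0.27) on RD and −0.72 (SE 0.27, adjusted p = 0.044) on HFD, where male and female libraries overlapped.

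In heads the sexes were closer. On RD, 21 genes were tested, and 1 was higher and 3 were lower in males, 19.0% called beside 7.76% of all 10151 genes (3.41% higher and 4.35% lower). The count rests on single libraries. Without any one of male head RD 2 and 3 or of the 3 female head RD libraries it was 0. Over all genes 56 to 278 were called in these fits. Without male head RD 1 it was 9 of 21 (2 higher and 7 lower), beside 5093 of all 10345 genes. VhaM9.7-a was at 92.7, 116 and 122 CPM in male RD heads and 72.3, 76.5 and 65.6 CPM in female RD heads, a log2 fold change of 0.65 (SE 0.13, adjusted p = 0.037). Vha36-3 was at 13.3, 8.45 and 11.3 CPM against 20.7, 19.8 and 19.9 CPM, a change of −0.85 (SE 0.17, adjusted p = 0.036). Vha68-2 was at 282, 261 and 294 CPM against 427, 398 and 390 CPM, a change of −0.52 (SE 0.10, adjusted p = 0.036). Vha100-2 was at 148, 149 and 169 CPM against 217, 237 and 203 CPM, a change of −0.47 (SE 0.11, adjusted p = 0.047), and was not called with RLE or total counts.

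On HFD none of 21 genes was called between male and female heads by edgeR, beside 1.78% of all 10281 genes. DESeq2 called 1, beside 1099 of all 10281 genes. With edgeR, 4 had an unadjusted p under 0.05 (25.3% of all genes did). These 4 were the genes called on RD. VhaM9.7-a was at 0.70 (SE 0.19, adjusted p = 0.12), Vha36-3 at −0.99 (SE 0.34, adjusted p = 0.17), Vha68-2 at −0.74 (SE 0.26, adjusted p = 0.17) and Vha100-2 at −0.74 (SE 0.25, adjusted p = 0.17), with no overlap of male and female libraries for any of them. Without male head HFD 2, 6 of 22 genes were called, 2 higher and 4 lower, beside 4338 of all 10516 genes. Male head HFD 3 held 85.7 CPM of Vha100-2 against 162 and 125 CPM in the other libraries of its group, and 5.20 CPM of Vha36-3 against 13.2 and 9.36 CPM.

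Shares within a subunit, which do not depend on library scaling, differed between male and female heads without overlap over the 6 libraries of each sex. Vha68-1 was 66.8 to 79.9% of subunit A in male heads and 55.6 to 59.3% in female heads. Vha100-1 was 70.9 to 79.0% of subunit a in male heads and 62.9 to 68.8% in female heads. VhaM9.7-a was 56.1 to 62.6% of subunit e in male heads and 49.5 to 51.0% in female heads. These ranges pool both diets and are a description, not a test. The summed neuron and photoreceptor markers were 55585 to 81521 CPM in male heads and 49202 to 57884 CPM in female heads, and their part in the shares was not tested.

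The sex difference of Vha36-3, on chromosome X at 2579091 to 2580560, had opposite directions in the tissues. It was 3.84 to 4.63% of subunit D in male heads and 6.84 to 7.96% in female heads, but in bodies the males held 6.92 to 8.08% and the females 2.74 to 3.83%. Body over head, it was higher by 0.87 (SE 0.20, adjusted p = 0.0049) in males on RD, or 0.62 (adjusted p = 0.053) without male body RD 3, and lower by 1.17 (SE 0.11, adjusted p = 1.5e-05) in females on RD. The interaction of sex with tissue on RD, male minus female difference of body over head, was 1.64 (SE 0.20, adjusted p = 1.4e-05). The same term was 1.13 (SE 0.17, adjusted p = 8.2e-05) for Vha68-1 and 1.03 (SE 0.29, adjusted p = 0.0076) for VhaM9.7-a. These 3 were called under every one of 19 alternatives, with ranges of 1.57 to 2.19, 1.05 to 1.73 and 0.76 to 1.73.

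Over the family, the interaction of sex with tissue was called for 23 of 33 genes, 9 positive and 14 negative, 69.7% beside 65.1% of all 13458 genes (30.9% positive and 34.2% negative). The negative calls depended on scaling. With RLE 9 were positive and 2 negative, beside 8683 of all 13458 genes called, and with total counts 9 and 5, beside 8710. Without male body RD 2 the Vha genes called were 12, beside 8482 of all 13667 genes. Without any one of the female body RD libraries they were 10, beside 8333 to 8606 of all genes. The negative calls also lie against a shifting middle: the median over all genes was 0.13 with TMM, 0.69 with RLE and 0.33 with total counts. Vha100-1, Vha16-1, VhaAC45, VhaM8.9 and VhaM9.7-b changed sign with RLE. Of the 9 positive calls, 6 were male-body genes, with 8 reads or fewer in at least 1 of the 4 groups, so that their fitted terms depend on the prior count, and the other 3 were Vha36-3, Vha68-1 and VhaM9.7-a.

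The comparison of HFD with RD asks what the diet changed. No Vha gene passed the threshold in any sex or tissue. The test covered 20 genes in heads and 33 in bodies of males, and 21 and 22 genes in those of females. Of all genes tested, edgeR called none in male heads, male bodies and female bodies and 1 (0.00983%) in female heads, and DESeq2 and limma-voom also called no Vha gene in these 4 comparisons. Over all genes DESeq2 called 9 in male heads, 28 in male bodies, 17 in female heads and 7 in female bodies. Limma-voom called 1 in female heads and none in the others. Without adjustment, p was under 0.05 for 0 Vha genes in male heads beside 1.42% of all genes, 1 in male bodies beside 3.79%, 0 in female heads beside 2.76% and 2 in female bodies beside 3.48%. The count for male bodies rests on 1 library: without male body HFD 2 it was 12 of 33. After adjustment none of all 12956 genes was called in that fit. The share of all genes with an unadjusted p under 0.05 was not computed there, so nothing is read from the 12. The median log2 fold change in that fit was −0.15 over the Vha genes beside −0.006 over all genes. With every library kept, the median of the Vha genes was −0.05 in male heads, −0.01 in male bodies, −0.02 in female heads and 0.05 in female bodies. Over all genes it was −0.02, 0.03, −0.01 and 0.00.

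**Figure D4:**
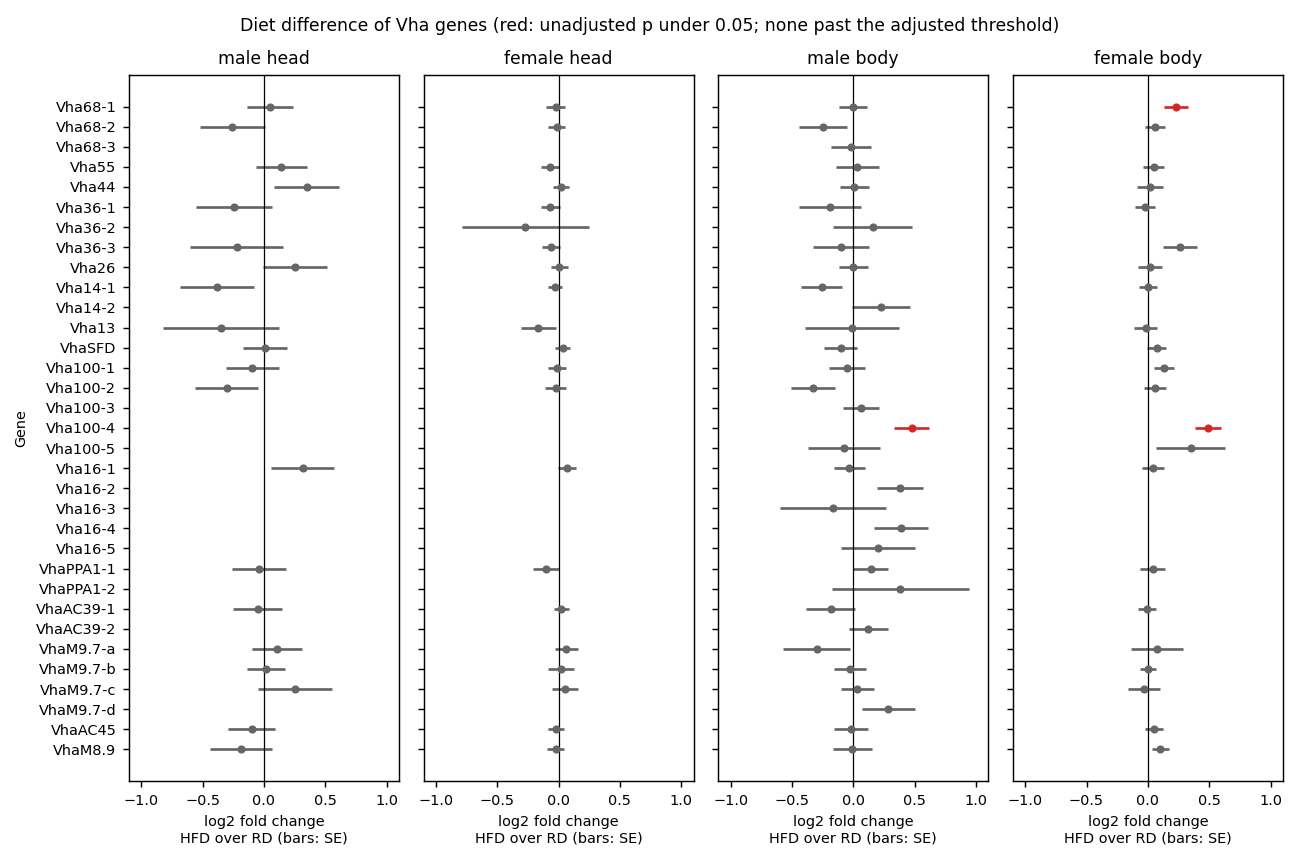
Log2 fold change of HFD over RD (x axis, bars are the SE) for each tested Vha gene (y axis) in male heads, female heads, male bodies and female bodies. Red points have an unadjusted p under 0.05: Vha100-4 in both bodies and Vha68-1 in female bodies, and none passed the adjusted threshold.

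In male heads the smallest p-values were those of Vha44 (0.35, SE 0.26, adjusted p = 0.81), Vha14-1 (−0.38, SE 0.30, adjusted p = 0.81) and Vha16-1 (0.32, SE 0.26, adjusted p = 0.81). In female heads they were those of Vha13 (−0.17, SE 0.14), VhaPPA1-1 (−0.10) and Vha55 (−0.07), each with an adjusted p of 1.0. The biological coefficient of variation over all genes was 0.378 in the male head comparison and 0.107 in the female one. In male bodies Vha16-2 was at 0.38 (SE 0.19, adjusted p = 0.94) and Vha100-2 at −0.32 (SE 0.18, adjusted p = 0.94). In female bodies Vha68-1 was at 58.7, 48.0 and 51.5 CPM on HFD and 46.7, 47.4 and 42.7 CPM on RD, a difference of 0.23 (SE 0.10, adjusted p = 0.94), and Vha36-3 was at 0.26 (SE 0.14, adjusted p = 0.94).

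Vha100-4, the gut gene of subunit a, had the smallest p-value in the bodies of both sexes. The study had already singled this gene out on the same libraries, so its direction here is not independent evidence. In male bodies it was at 12.6, 13.1 and 14.5 CPM on RD and 17.1, 18.3 and 21.0 CPM on HFD, a log2 fold change of 0.48 (SE 0.14, adjusted p = 0.94). In female bodies it was at 21.6, 27.2 and 23.8 CPM on RD and 33.6, 33.0 and 33.4 CPM on HFD, a change of 0.49 (SE 0.11, adjusted p = 0.94). The HFD libraries lay above the RD libraries in each sex. Such separation upward was seen in the bodies for 2 Vha genes of males and 4 of females, beside 3.91% and 5.30% of all genes.

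**Figure D5:**
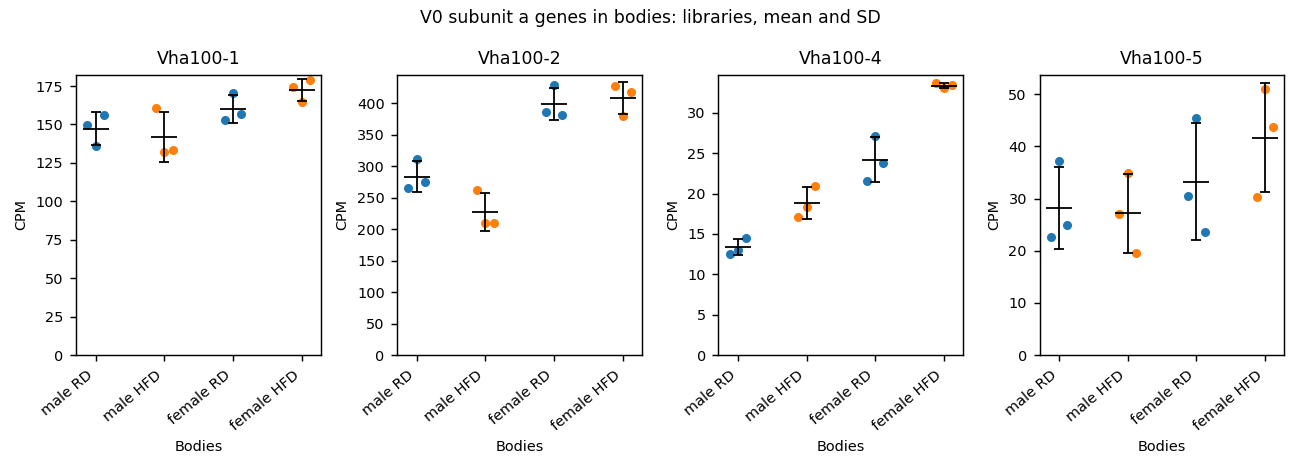
CPM of Vha100-1, Vha100-2, Vha100-4 and Vha100-5 (y axis, one panel each) in male and female bodies on RD and HFD (x axis); points are libraries, bars the mean and SD of 3. For Vha100-4 the HFD libraries, 17.1 to 21.0 CPM in males and 33.0 to 33.6 CPM in females, lie above the RD libraries of the same sex.

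A model with 1 diet effect for the bodies of both sexes gave Vha100-4 a log2 fold change of 0.46 (SE 0.08, adjusted p = 0.20), so edgeR called no gene of 33. With limma-voom the adjusted p was 0.25 and with the replicate number as a block it was 1.0, while DESeq2 called it at 0.47 (adjusted p = 0.00054). In this model DESeq2 called 22 of all 13425 genes, and limma-voom and the block called 0. The diet effects of males and females differed by 0.04 (SE 0.17) for this gene and were not distinguished (edgeR, adjusted p = 1.0). Its share of subunit a was 2.57% ± 0.21 (SD, n = 3) in male RD bodies and 3.92% ± 0.52 (SD, n = 3) in male HFD bodies. In females the share was 4.60% ± 0.27 (SD, n = 3) on RD and 5.95% ± 0.17 (SD, n = 3) on HFD. These levels stayed far below those of Vha100-2 in every body library.

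Midgut content of the body libraries varied beside this gene. The 18 midgut markers summed to 1702, 4511 and 2760 CPM in male RD bodies, 7858, 1482 and 982 CPM in male HFD bodies, 6654, 7722 and 5025 CPM in female RD bodies and 6782, 7229 and 7767 CPM in female HFD bodies. The gene lab, which marks the acid region of the midgut, was at 3.44 to 3.83 CPM in male RD and 3.87 to 6.32 CPM in male HFD bodies, and at 2.78 to 3.04 CPM in female RD and 1.66 to 3.29 CPM in female HFD bodies. It was also at 3.40 to 5.91 CPM in heads, so its reads do not come from the midgut alone. The part of these cells in the Vha100-4 values was not tested. Vha100-4 lies on chromosome 3R at 18386841 to 18389805 of dm6, on the minus strand and 517 bases from Vha100-2, and it overlaps cona on the other strand, from which reads cannot be told apart without strand.

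Genes around the pump were read from a list of 15 regulators and partners. In RD bodies 4 of them were higher and 7 lower in males, in female RD samples 5 were higher and 9 lower in bodies than in heads, and none was called for diet in any of the 4 comparisons or for sex in heads. The 73.3% called between RD bodies and the 93.3% called between female RD tissues stand beside 84.4% and 86.9% of all genes, and the median sex difference of the list in RD bodies was 0.05 beside 0.40 over all genes. Nhe2 and Nhe1, which exchange sodium for protons, were higher in male than in female RD bodies by 1.73 (SE 0.11) and 1.23 (SE 0.11) on the log2 scale. Nhe3 went the other way and was called at −0.25 (SE 0.10). ClC-a, a chloride channel, was higher by 1.43 (SE 0.10). ClC-b and ClC-c were called lower in males, at −0.52 (SE 0.10) and −0.30 (SE 0.10). RagC-D, a GTPase of the lysosomal surface, fell by 0.73 (SE 0.12), and Rbcn-3A, a rabconnectin that helps assemble the pump, fell by 0.66 (SE 0.15). Rbcn-3B was at 0.05 (SE 0.09) and was not called. Mitf, the transcription factor known to drive V-ATPase genes in the fly, fell by 0.48 (SE 0.13, adjusted p = 0.0060) in male RD bodies. On HFD its change of −0.32 (SE 0.21, adjusted p = 0.19) was not called. The exchanger Nha1 was higher in bodies than in heads, by 1.91 (SE 0.31) in males and 1.32 in females on RD. Nha2, body over head, was called lower in RD females at −0.85 (SE 0.08) and was not called in RD males (0.37, SE 0.29).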

How the data were processed

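Libraries were made with a stranded mRNA kit and read as 100-base pairs, and the methods name TopHat with the fly index of Illumina. The submitters' processing notes name featureCounts and the build dm6, whereas a mouse annotation is named for counting in the methods; versions and strand setting are not given in the sources used here. The authors deposited 2 tables of raw counts per gene, 1 for each sex, with a gene length in bases and no pooled or fold change column. Rows present in both tables were kept (16727), and the length of a gene was the same in both tables for 16727 of them.

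Each comparison was fitted on its own libraries over all genes with edgeR 4.0.16 in R 4.3.3 (filterByExpr with a minimum count of 10 and total of 15, TMM, quasi-likelihood test, Benjamini-Hochberg adjustment over all genes tested, threshold 0.05). SEs were derived from the log2 fold change and its F statistic. CPM used TMM over all libraries, TPM used the deposited counts and lengths, and a paralog's share is its percent of the summed TPM of its subunit. For groups with 3 reads or fewer, reads were summed and given as a ratio with a 95% exact binomial interval, or against a floor of 3 counts over the group. These intervals cover counting error only.

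Groups came from the labels. Library depth and replicate agreement were checked, and no pair of replicates differed by less than sampling noise. Alternatives were DESeq2 1.42.0, limma-voom (limma 3.58.1), RLE factors, total counts alone, every gene with at least 1 count, a mean TPM of at least 1, the replicate number as a block, and each library left out. Shares of reads without division by length were added after seeing the data. Full values were given for Vha100-1, Vha100-2 and Vha100-4 and, in each comparison of sex or tissue, for the 3 largest rises and falls past the threshold whose libraries did not overlap. In the diet comparisons they were given for the 3 smallest p-values where no gene was called. The members and gene lists were chosen with earlier results of these data known. Same-numbered heads and bodies of HFD males deviated together (correlations of 0.70, 0.53 and 0.22). The methods took both tissues from the same tube for both sexes and diets. They do not say that equal replicate numbers mark the same tube. The main counts and SEs of every tissue comparison come from fits without pairs, and the block was an alternative. The tests were checked on simulated counts. Gene positions came from Ensembl BDGP6, whose gene lengths equal those deposited for 33 of 33 members. VhaAC45RP, listed as CG31030, lies outside the rule and was not used here.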

Additional observations from a re-analysis of the deposited data

Results flagged for a closer look

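The number of Vha genes whose sex difference was not the same in bodies and heads on RD was 23 of 33 by the interaction test (edgeR, adjusted p under 0.05). With TMM scaling and every library kept this is near the 65.1% of all genes called. With RLE factors it was 11, beside 8683 of all 13458 genes. Without any one of the female body RD libraries it was 10, beside 8333 to 8606 of all genes. The 23 include male-body genes, whose fitted terms depend on the prior count. Among the genes that both sexes used, Vha36-3 had an interaction of 1.64 on the log2 scale (SE 0.20, adjusted p = 1.4e-05), with males higher in bodies and lower in heads. Vha68-1 had an interaction of 1.13 (SE 0.17, adjusted p = 8.2e-05) and VhaM9.7-a of 1.03 (SE 0.29, adjusted p = 0.0076), or 0.76 without male body RD 3, the library with the most neuron and photoreceptor marker reads.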

How the results depend on the processing

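For the numbers of Vha genes called, 273 values from the alternatives stayed within 1.5 times the reported number and 16 did not. The sex by tissue interaction on RD gave 11 genes with RLE factors, 14 with total counts alone and 14 with every gene of at least 1 count tested, against 23, and 10 to 25 with each library left out. Over all genes these settings called 8683 and 8710 of 13458 and 8749 of 15632, against 8763 of 13458. The fits with each library left out called 8151 to 9046. The sex difference in RD heads gave 0 to 9 genes with each library left out, against 4. Over all genes these fits called 56 to 5093. The sex difference in HFD heads gave 1 gene with DESeq2 and 0 to 6 with each library left out, against 0. Over all genes DESeq2 called 1099, and the fits with each library left out 0 to 4338. The diet effect common to both bodies gave 1 gene with DESeq2, Vha100-4, beside 22 of all 13425 genes, against 0. The cause was not tested. With each library left out the sex difference gave 22 to 24 genes in RD bodies and 21 to 26 in HFD bodies, beside 10703 to 11028 and 9088 to 11171 of all genes. The tissue difference gave 20 to 25 in RD males and 16 to 19 in HFD males, beside 9023 to 10356 and 6980 to 8441. It gave 14 to 16 in RD females and 13 to 15 in HFD females, beside 9120 to 9441 and 8957 to 9379. Diet gave 0 throughout, beside 0 to 4 of all genes.

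Among values of single genes, with shares and level ratios counted in, 963 stayed the same. For a log2 fold change this means the same direction and side of the threshold, and for a share or ratio a shift smaller than the SD. Of the log2 fold changes, 28 fell short of the threshold and 1 passed it, and 20 shares or ratios moved by the SD or more. A reversal was seen for 2 genes, neither of them called in that comparison. The sex by diet term of Vha100-4 in bodies was 0.04, but −0.046 with total counts alone, −0.057 with the replicate block and −0.073 to 0.11 with each library left out. The diet effect of Vha68-3 in heads was 0.72, and −0.046 to 1.05 with each library left out, the lowest being without male head HFD 4. The replicate block was also fitted where the correlation of same-numbered libraries was not over 0.1 in every pair. It gave 5 genes for sex in RD heads, beside 3832 of all 10151. For sex in RD and HFD bodies it gave 21 and 25, beside 9993 of 13004 and 9900 of 13018. For tissue it gave 20 in RD males, beside 8709 of 13046. In RD and HFD females it gave 14 and 13, beside 9283 of 10725 and 9272 of 10794. The sex by tissue interaction gave 19, beside 8280 of 13458. Sex in HFD heads and diet gave 0. Vha100-2 in RD bodies was then not called for sex (−0.45, adjusted p = 0.054), nor Vha36-1 for tissue in HFD females (0.23, adjusted p = 0.052). In those HFD females the correlations were 0.092, 0.089 and 0.12 and every library correlated best with its own number, a hint of pairing from the data. Without division by gene length, the share of VhaM9.7-a in subunit e was 48.2% in male and 38.6% in female RD heads, and that of Vha36-3 in subunit D 8.50% in male and 3.51% in female RD bodies. With 3 libraries per group and the wide spread of male heads, small differences there were not detectable.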
